A study of Mus musculus with 5 samples.

Results

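Genes with 3′ UTR intervals that lie apart, and whose reads can therefore be counted separately, were examined in SLAMseq libraries of mouse cardiac fibroblasts (CF). A gene was taken where at least 2 of its deposited intervals lay on the same chromosome and strand and shared no base, which held for 4369 of 20365 gene names and for 17031 of 40428 distinct intervals. Where intervals of a gene overlapped, the longest stood for them, which left 11097 separate intervals. The most upstream and the most downstream interval whose coverage reached 100 T positions in each labeled library were then compared within each gene, and 202 genes had such a pair. An interval did not need to hold an annotated transcript end. In 108 of the 202 pairs both intervals finished within 50 bases of one. The intervals of a pair are called ends below, whether or not a transcript end is annotated there. The other genes could not be compared: 1580 had 1 covered interval, 2587 had none, and 1114 of the latter had no read on any separate interval in any library. Of the 1580 genes with 1 covered interval, it was the most downstream one in 1366, the most upstream one in 153 and one between in 61.

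The 5 libraries came from CF of adult healthy male C57Bl/6J wildtype hearts, isolated by collagenase perfusion and grown to confluency. Labeled CF (n = 3) received 0.1 mM 4-thiouridine (S4U), a uridine analog, for 12 h, and unlabeled CF (n = 2) were kept in parallel without it. RNA of both groups was alkylated. The study's methods speak of 3 CF preparations. The labels do not tie a library to a preparation, so p-values refer to these libraries and not to preparations.

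Most mammalian genes carry several sites at which the transcript can be cut and polyadenylated. The site lies shortly behind a hexamer, most often AATAAA. An upstream site in an intron gives an alternative last exon and often another C-terminus, for instance a soluble in place of a membrane-bound receptor, while sites in 1 last exon change only the length of the 3′ UTR. In SLAMseq the incorporated S4U reads as C, so the share of covered T positions read as C (T>C rate) follows how much of a transcript was made while S4U was present, and 3′ end libraries place each read close to the end of its transcript. The reads of a gene can therefore be divided by the end used, and each end has its own T>C rate.

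For many of the ends compared, though not for all, a hexamer can be seen in the sequence. Shown are, 5′ to 3′ on the sense strand of GRCm39, 30 bases around the last hexamer within 50 bases of the interval's end, for 6 of the genes whose ends differed in T>C rate below, with the hexamer in capitals.
Cxcl12 upstream, chr6:117151998-117152027, plus strand: ttatttacctgaAATAAAatctactagttg
Cxcl12 downstream, chr6:117158293-117158322, plus strand: taccattttcctAATAAAgttctgtattca
Csf1 upstream, chr3:107652921-107652950, minus strand: agcttgtagtctATTAAAaaccccagttct
Csf1 downstream, chr3:107648378-107648407, minus strand: tttatatttaatAATAAAagaagtgcacaa
Ghr upstream, chr15:3357009-3357038, minus strand: tcaaaataataaAATAAAattttaaaaatt
Ghr downstream, chr15:3347244-3347273, minus strand: ccttcaaagttcAATAAAtttattttcttg
Egfr upstream, chr11:16837609-16837638, plus strand: ccAATAAAtttctctcatcattttgtttct
Egfr downstream, chr11:16868125-16868154, plus strand: ttttaaaaaattAATAAAccttattttcag
Ifnar2 upstream, chr16:91190892-91190921, plus strand: tgtactcctgccAATAAAtgcacaccactg
Lamp2 upstream, chrX:37508390-37508419, minus strand: tgcttctaaatcAATAAAgattcttttatt
Lamp2 downstream, chrX:37493944-37493973, minus strand: cttactggaattAATAAAcactgcttgacc
The upstream end of Csf1 had the variant ATTAAA, and the end of the downstream Ifnar2 interval held neither hexamer. Between the upstream Egfr hexamer and the end of its interval lie 42 bases. That interval end is 206 bases from the nearest annotated transcript end.

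Over the 202 pairs, AATAAA stood in the last 50 bases of 52.5% of the upstream and 70.8% of the downstream intervals, against 53.6% of all 40380 distinct intervals on chromosomes of GRCm39. ATTAAA without AATAAA was found in 11.4%, 15.3% and 12.5%. Either hexamer on the sense strand was found in 63.9% of the upstream, 86.1% of the downstream and 66.1% of all intervals, and the reverse complement of either (TTTATT or TTTAAT) in 12.9%, 17.3% and 11.8%. At least 6 A among the 10 genomic bases behind the interval, a stretch on which an oligo(dT) primer can start, were found for 8.91% of the upstream, 4.95% of the downstream and 5.26% of all intervals. In 96 genes the upstream interval lay in an intron of the transcripts that end downstream, in 38 it was partly and in 31 wholly exonic in such a transcript, and in 34 the annotation put a transcript end in only 1 interval or in neither. Of the remaining 3 genes, 2 had names not in the annotation. The pair of Gm20498, one such name, has the upstream interval of Cox16 and overlaps its downstream interval, so these reads count under both names. The intervals of a pair were separated by 25 to 677186 bases, with a median of 7722.5 bases.

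Between 729040 (labeled replicate 3) and 2771513 reads (unlabeled replicate 1) were counted on all intervals of a library, and the pairs held from 2.51% to 2.81% of them. Cardiac fibroblast markers were present (7 of 7, summed CPM over the interval reads 25641 to 28949 in labeled and 20389 to 23030 in unlabeled CF). Markers of other cells were lower, with a summed CPM from 24.7 to 39.8 for 5 macrophage genes, 63.3 to 133 for 4 endothelial genes, 1.08 to 4.75 for 4 cardiomyocyte genes and 2.04 to 9.60 for 4 genes of pericytes and smooth muscle, and none was at 0 in all libraries. Libraries did not vary alike. The chi-square per degree of freedom of the read counts was 1.91 between labeled replicates 2 and 3, 9.20 to 13.9 between replicate 1 and these, and 13.3 between the unlabeled replicates. No library was thus a copy of another in its group, and labeled libraries were not compared with unlabeled ones in this way. Depth and cell markers were not tested for a part in the results that follow.

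The division of reads between the 2 intervals of a pair varied widely between genes. The downstream interval held a median of 61.3%, 63.4% and 63.8% of the reads of the pair in labeled replicates 1, 2 and 3, and 66.4% in each unlabeled library. The middle 50% of the genes reached from 31.8% to 83.4% in labeled replicate 1. In 108 genes the downstream interval had over 50% of the reads in all 3 labeled libraries, in 58 it had less in all 3, and in 36 the majority changed between libraries. A downstream majority was found in 46 of 108 pairs with annotated ends at both intervals, and in 4 of 12 with 1000 covered T positions. In 110 of the 202 pairs neither interval overlaps another annotated gene. Over the labeled libraries the share of a gene had a median SD of 5.57 percentage points, with a largest SD of 27.2. Across the 202 genes the shares of labeled replicates 2 and 3 had a Spearman's rho of 0.95, and those of replicate 1 with either of 0.89 (genes are not independent replicates, and depth is shared within a library).

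Genes that use 1 end alone are left out of the pairs by the coverage minimum for both intervals. Within the pairs, the downstream share was above 90% in every labeled library in 9 genes, among them App, Dst, Itsn1, Nrp1, Ociad1, Pakap, Pdgfra and Rab2a, and below 10% in 6, among them Ahnak, Dclk1, Hnrnpu, Sh3glb1 and Socs2. These genes, like other genes said to be so below, were chosen after their values were seen. Pdgfra, the receptor that marks fibroblasts, had 90.7%, 90.5% and 91.9% downstream in the labeled and 93.0% and 93.9% in the unlabeled libraries. Of the pairs with at least 1000 covered T positions in both intervals, Lamp2, Cxcl12 and Ikbip had the lowest downstream shares (20.4% ± 10.2, 25.1% ± 5.57 and 25.4% ± 10.2; SD, n = 3). Pakap, Csnk1a1 and Col14a1 had the highest (93.2% ± 2.34, 85.1% ± 3.95 and 79.4% ± 1.87; SD, n = 3).

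**Figure D1:**
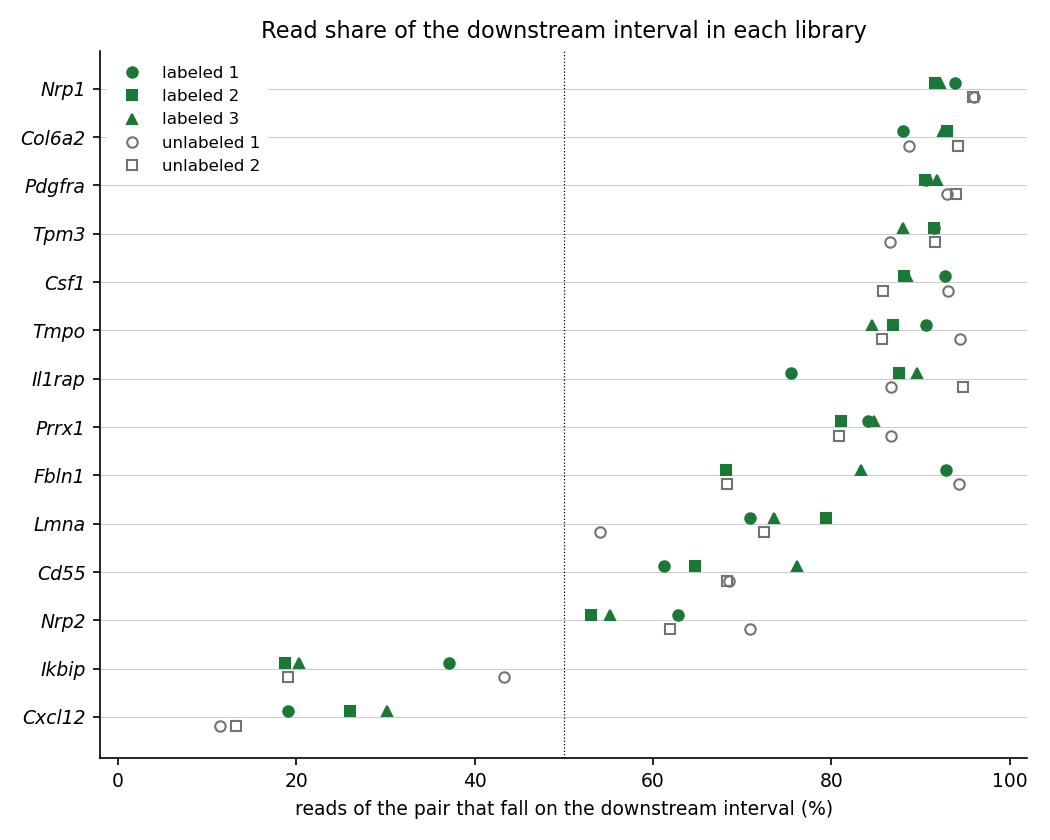
Share of the reads of a pair that fell on the downstream interval (x axis, percent) for 14 genes with well known alternative last exons (y axis), with filled symbols for the 3 labeled and open symbols for the 2 unlabeled libraries. Shares ran from 11.4% in Cxcl12 to 96.0% in Nrp1, and the labeled and unlabeled symbols of Cxcl12, Nrp1 and Pdgfra did not overlap, as in 27.7% of all 202 pairs.

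The main question was whether 2 ends of a gene differ in T>C rate within the same labeled library. Over all 202 genes they were alike on average. The median T>C rate was 3.55%, 3.89% and 3.68% upstream and 3.85%, 3.84% and 3.95% downstream in labeled replicates 1, 2 and 3, and the rate was higher downstream in 113, 96 and 95 genes. Intervals of genes without separate ends (9960 at the same coverage) had medians of 3.74%, 3.85% and 3.85%. In unlabeled CF the 2 libraries together gave a median rate of 0.0274% upstream and 0.0548% downstream, and 5 pairs had an interval at or above 0.5%. The log2 odds ratio of T>C, downstream over upstream, had a median of -0.01 with quartiles of -0.22 and 0.25, and its 95% interval reached a median of 0.55 to either side.

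In 14 genes the T>C rate differed between the ends (quasi-binomial model with a term for the library, dispersion moderated over genes, adjusted p below 0.05 by Benjamini-Hochberg over 202 genes). The moderated dispersion was 1 value of 1.38 for all genes. A gene's own spread between libraries therefore did not enter its p-value. With a gene's own dispersion where it was larger, 13 of the 14 passed. It was higher downstream in 8 genes, 3.96% of those tested, and upstream in 6, which is 2.97%. The genes higher downstream were Cxcl12, Csf1, Ikbip, Mxra7, Ghr, Egfr, Ifnar2 and Ndufb8, and those higher upstream were Lamp2, App, Ccpg1, Gpc6, Ahnak and Cr1l. In 13 of the 14 the direction was the same in all 3 labeled libraries, the exception being App. Over all 202 genes, 38 were higher downstream and 34 higher upstream in all 3. Without the adjustment 21 genes were higher downstream and 12 upstream. The higher rate was in the interval with fewer reads in 8 of the 14 genes, and in 87 of the 202.

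The number of calls depended on the library set and on the test. No gene passed without labeled replicate 3, the shallowest library (lowest adjusted p = 0.093, with 21 genes at an unadjusted p below 0.05), while 7 passed without labeled replicate 1 and 8 without replicate 2. The direction of all 14 genes was kept in each case. A beta-binomial test without a library term called 9 of the 14, not Ikbip, Lamp2, Gpc6, Ndufb8 and Ccpg1 (adjusted p from 0.052 to 0.189), and limma on the paired log odds called 3 (Ghr, Egfr and Cr1l).

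**Figure D2:**
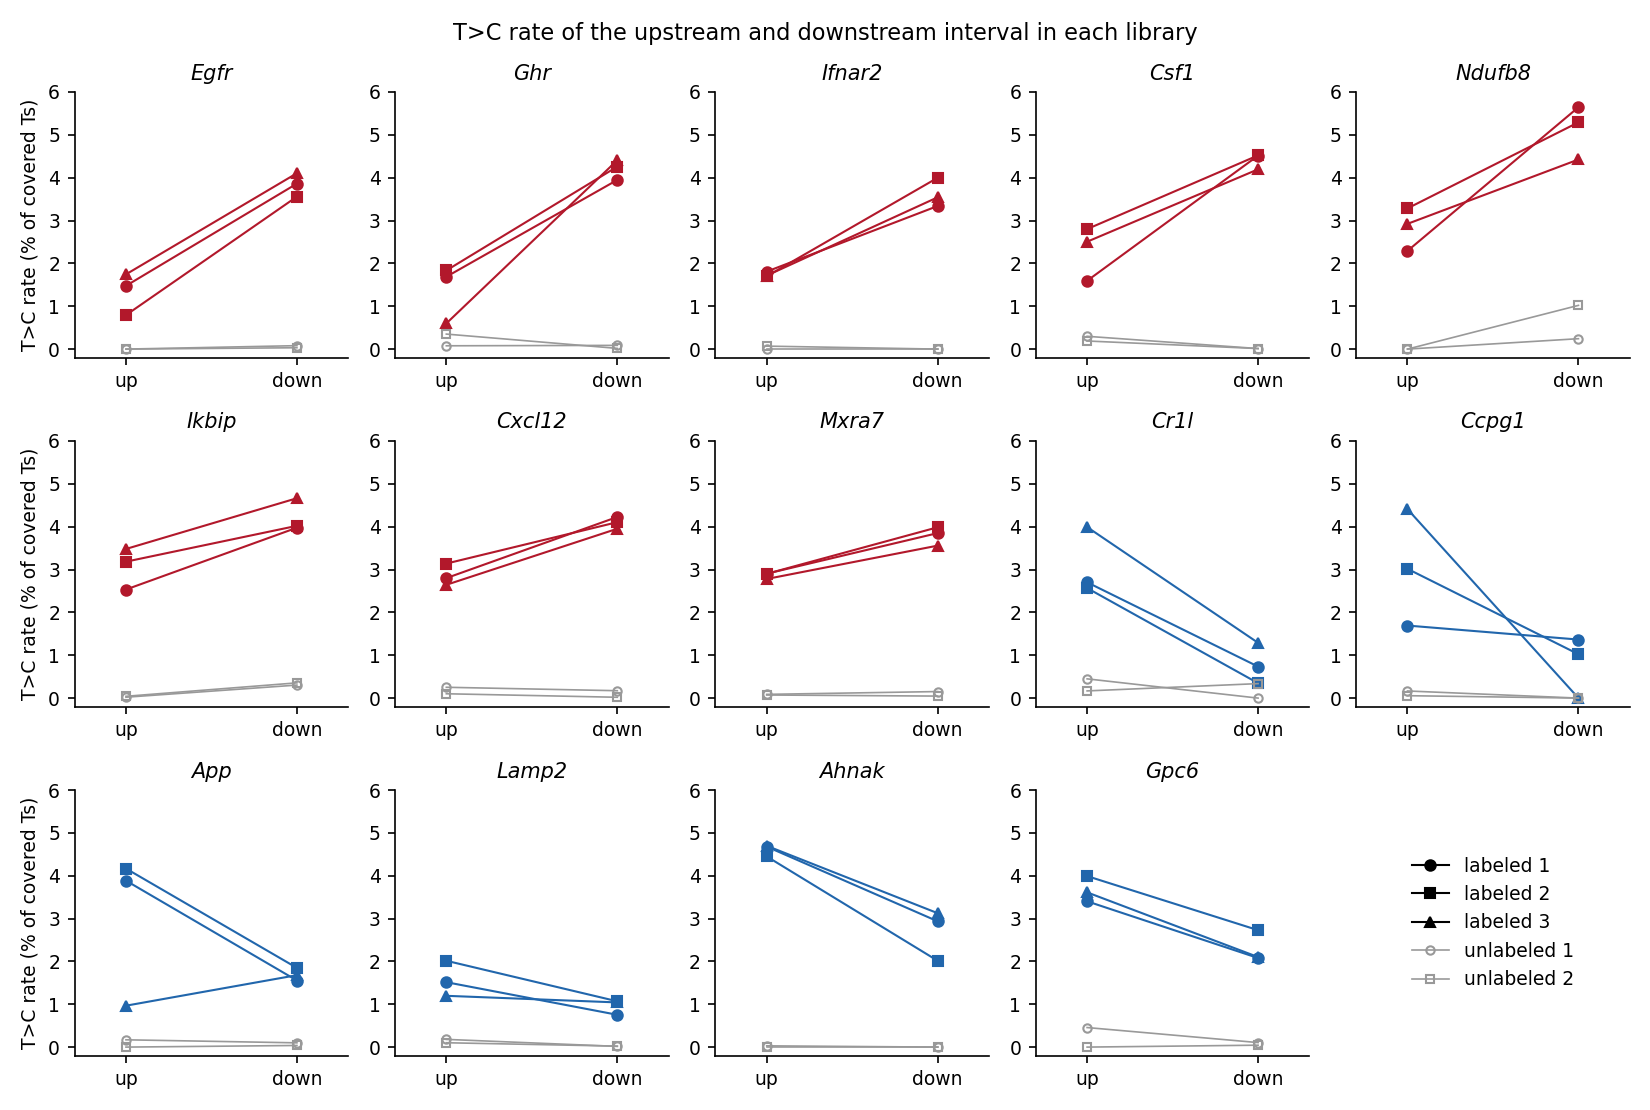
T>C rate (y axis, percent of covered T positions) of the upstream and the downstream interval (x axis) of the 14 genes with an adjusted p below 0.05, with a line for each library. Red lines mark labeled libraries of the 8 genes higher downstream and blue lines those of the 6 genes higher upstream, and grey lines the unlabeled libraries. App is the gene in which labeled replicate 3 ran against the other two.

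Cxcl12, the chemokine that retains leukocytes and progenitor cells, had the most covered T positions on the shallower interval. Its transcripts end at chr6:117150544-117152030 (plus strand, GRCm39), where the annotated proteins have at most 89 residues, or at chr6:117153141-117158329, where they reach 119 residues. The upstream interval is intronic in the transcripts ending downstream, and the 2 are 1110 bases apart. The T>C rate was 2.80%, 3.14% and 2.64% upstream, over 10780 to 35569 covered T positions. Downstream it was 4.23%, 4.11% and 3.95%, over 4655 to 9450. Every labeled library was thus higher downstream, and the groups of values did not overlap. The means were 2.86% ± 0.253 and 4.10% ± 0.137 (SD, n = 3), a log2 odds ratio of 0.52 ± 0.07 (SE; adjusted p = 1.99e-11). The unlabeled libraries together had 0.199% upstream and 0.113% downstream. Neither interval overlaps another annotated gene.

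Csf1, the growth factor of macrophages, had its lower rate at a short upstream end. The upstream interval, chr3:107652909-107653156 (minus strand), is intronic in the transcripts ending at the downstream interval, chr3:107648364-107650461, and the longest proteins annotated for the 2 ends have 552 and 579 residues. The T>C rate was 1.59%, 2.80% and 2.51% upstream and 4.52%, 4.52% and 4.20% downstream. All downstream values exceeded all upstream values, with means of 2.30% ± 0.629 and 4.41% ± 0.186 (SD, n = 3). The log2 odds ratio was 1.04 ± 0.16 (SE; adjusted p = 1.12e-10, and 0.000709 with the dispersion of Csf1 itself). From 44 to 124 reads per labeled library lay upstream and 340 to 1579 downstream. An antisense gene, Gm40121, covers both intervals.

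The receptors Ghr, Egfr and Ifnar2, each with an intronic upstream end, were higher downstream as well, and in Ghr and Egfr the proteins annotated at the upstream end are the shorter ones. Ghr, the growth hormone receptor, is known in rodents to give a soluble binding protein by alternative processing. Its upstream interval, chr15:3357007-3357085 (minus strand, at most 315 residues), had 1.69%, 1.83% and 0.599%. The downstream interval, chr15:3347237-3349223 (650 residues), had 3.95%, 4.26% and 4.41%. The groups of values did not overlap, and the log2 odds ratio was 1.37 ± 0.32 (SE; adjusted p = 6.34e-05). The upstream value of replicate 3 rests on 1 conversion in 167 covered T positions. The upstream Ghr interval has 79 bases with 23 T, each counted as covered again with every read.

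Egfr, the epidermal growth factor receptor, had 1.48%, 0.794% and 1.74% at chr11:16837229-16837658 (plus strand, at most 729 residues). At chr11:16861856-16868158 (1210 residues) it had 3.86%, 3.56% and 4.10%. All labeled libraries were more than 2-fold higher downstream on 10 to 15 upstream reads each, with a log2 odds ratio of 1.53 ± 0.51 (SE; adjusted p = 0.00954). The antisense gene Eldr overlaps the downstream Egfr interval. Ifnar2, a chain of the type I interferon receptor, had 1.81%, 1.70% and 1.72% at chr16:91190840-91190931 (plus strand, at most 254 residues). At chr16:91200633-91202477, where the 3 annotated transcripts are of the nonsense-mediated decay type, it had 3.34%, 4.00% and 3.54%. The 2 ends did not overlap in rate, and the log2 odds ratio was 1.08 ± 0.21 (SE; adjusted p = 3.46e-06). The upstream Ifnar2 interval has 92 bases with only 19 T. Both Ifnar2 intervals lie within Gm21970, a gene on the same strand, so their reads cannot be divided between the 2 genes.

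The other 3 genes higher downstream had smaller or less certain differences. Ikbip, which has well known alternative last exons, had 2.53%, 3.18% and 3.48% at chr10:90932480-90934520 (plus strand). It had 3.98%, 4.02% and 4.66% at chr10:90938367-90938475, a log2 odds ratio of 0.54 ± 0.11 (SE; adjusted p = 8.38e-05). The downstream Ikbip interval has 109 bases with 44 T. Mxra7, a gene associated with matrix remodeling, had 2.90%, 2.90% and 2.78% upstream and 3.85%, 3.99% and 3.56% downstream. Each of the 2 genes was higher downstream in all 3 libraries, Mxra7 with a log2 odds ratio of 0.44 ± 0.14 (SE; adjusted p = 0.0355). The ratio of Mxra7 was 0.048 at a minimum of 30 covered T positions (adjusted p = 0.991). With any 1 labeled library left out Mxra7 did not pass (adjusted p from 0.157 to 0.293). No annotated transcript ends at the downstream Mxra7 interval, and Gm73572 overlaps the upstream one. Ndufb8, a subunit of respiratory complex I, had 2.29%, 3.28% and 2.92% upstream and 5.65%, 5.29% and 4.42% downstream (adjusted p = 0.0266). Its intervals are 25 bases apart within the same-strand gene Gm20538, and its unlabeled rate downstream was 0.392% over 510 covered T positions. The upstream Ndufb8 interval has 80 bases with 25 T.

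Lamp2, a lysosomal membrane protein whose alternative last exons give forms with different tails, had the opposite order. The upstream interval is chrX:37508379-37510588 and the downstream one chrX:37493926-37494308 (minus strand), 14070 bases apart, and neither overlaps another gene. The T>C rate was 1.51%, 2.01% and 1.20% upstream over 15540 to 28988 covered T positions. Downstream it was 0.754%, 1.07% and 1.04% over 1343 to 9419. Each library was higher upstream, by little in replicate 3, and both ends lay well below the median of the 202 genes. The means were 1.58% ± 0.412 and 0.955% ± 0.175 (SD, n = 3), a log2 odds ratio of -0.91 ± 0.15 (SE; adjusted p = 1.05e-08). By the beta-binomial test its adjusted p was 0.189. At a minimum of 30 covered T positions another interval took the downstream place, and the log2 odds ratio was 1.13 (adjusted p = 0.383).

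The 5 further genes higher upstream had fewer covered T positions on the shallower interval than Lamp2. Ahnak, a very large scaffold protein, had 4.68%, 4.45% and 4.70% at chr19:8995689-8996560 (plus strand), where the annotated protein has 5656 residues. It had 2.94%, 2.01% and 3.12% at chr19:9053940-9054290, where proteins have at most 327 residues and from 8 to 35 reads per labeled library were counted (log2 odds ratio -0.91 ± 0.30, SE; adjusted p = 0.0158, and 0.0925 with a dispersion trend). The values of the 2 Ahnak ends did not overlap. Cr1l, a complement regulator, had 2.70%, 2.57% and 3.99% upstream and 0.735%, 0.348% and 1.29% downstream (log2 odds ratio -2.15 ± 0.87, SE; adjusted p = 0.0302), the latter on 1, 1 and 2 conversions. The Cr1l intervals have 74 bases with 25 T upstream and 118 bases with 34 T downstream. Ccpg1, a receptor for the autophagy of endoplasmic reticulum, had 1.69%, 3.02% and 4.41% upstream and 1.37%, 1.02% and 0 of 432 T positions downstream, which allows up to 0.694%. Both Ccpg1 intervals overlap Gm44503 on the same strand and Pigb on the other. With the dispersion of Ccpg1 itself the adjusted p rose from 0.00124 to 0.458.

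Gpc6, a glypican, had 3.40%, 3.99% and 3.61% upstream and 2.08%, 2.73% and 2.10% downstream (log2 odds ratio -0.68 ± 0.17, SE; adjusted p = 0.00183). Its upstream interval, chr14:117932004-117956635 (plus strand), lies in an intron, 92025 bases from the nearest annotated transcript end, and had 0.372% in the unlabeled libraries. App, the amyloid precursor protein, had 3.88%, 4.17% and 0.966% upstream and 1.55%, 1.85% and 1.68% downstream, so replicate 3 ran against the other two (adjusted p = 0.00124, and 0.238 with a dispersion trend). From 7 to 32 reads per labeled library lay on its upstream interval, which holds no annotated end and is opposite Gm49228, against 738 to 2124 downstream.

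**Figure D3:**
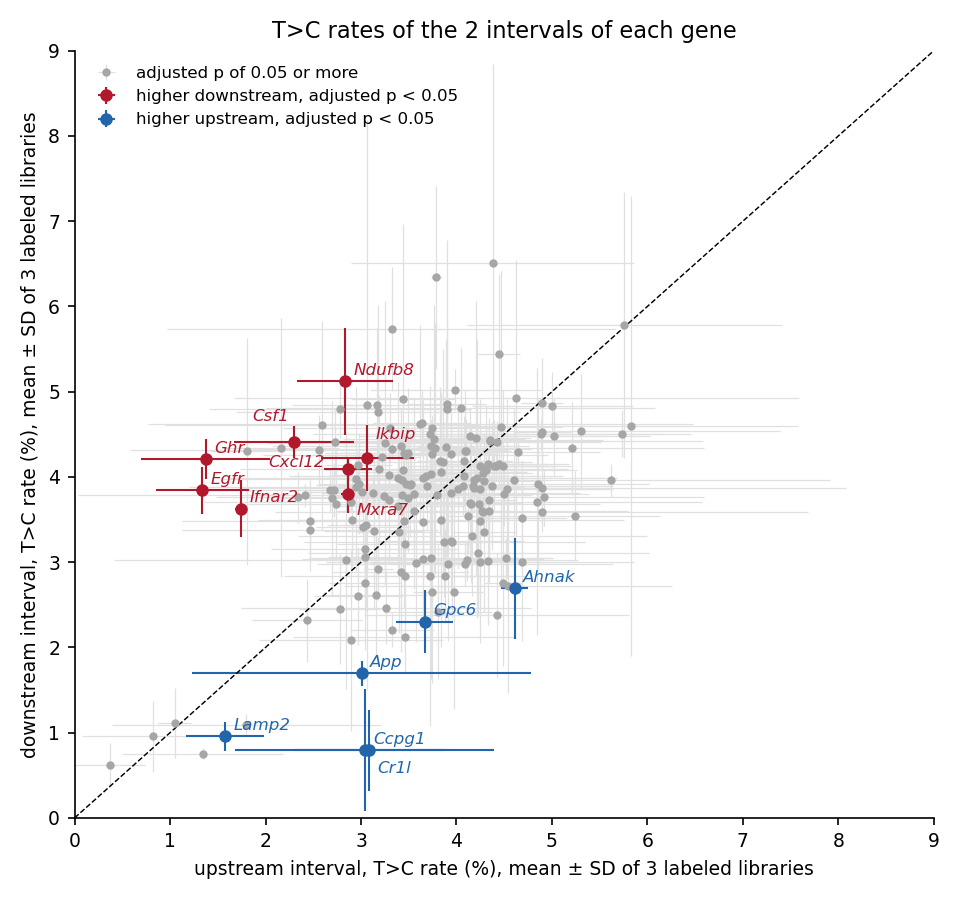
Mean T>C rate of the downstream (y axis, percent) against the upstream interval (x axis, percent) of 202 genes, with bars of 1 SD over the 3 labeled libraries and the line of equal rates. Grey points are genes with an adjusted p of 0.05 or more, and the 14 named genes lie off the line, 8 above (red) and 6 below (blue).

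Coverage differed widely between the pairs. The smaller number of covered T positions of a pair started at 100, and only 12 pairs had 1000 or more in both intervals and every labeled library. Of these 12 genes, Cxcl12, Ikbip, Mxra7 and Lamp2 passed the test. Over the 32 pairs with at least 500 covered T positions the log2 odds ratios of single libraries had a Spearman's rho of 0.41 between labeled replicates 1 and 2, 0.50 between 1 and 3 and 0.39 between 2 and 3, and the mean rates of the 2 ends one of 0.42. Over all 202 pairs the last was 0.22.

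**Figure D4:**
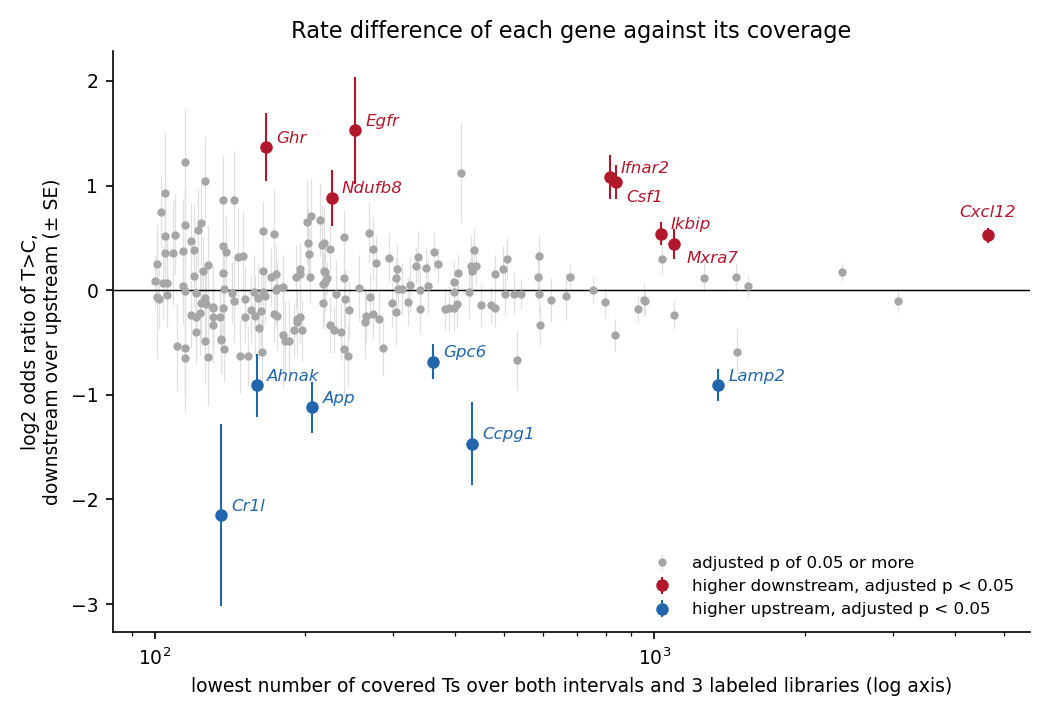
Log2 odds ratio of T>C, downstream over upstream (y axis), with its SE, against the lowest number of covered T positions over both intervals and the 3 labeled libraries (x axis, log scale), for 202 genes. Red and blue points are the 14 genes with an adjusted p below 0.05, and Cxcl12 stands at the right with 4655 covered T positions.

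For some genes the data bounded the difference closely. In 135 of the 202 genes the 95% interval of the log2 odds ratio lay within 1 to either side of 0, and in 23 within 0.5. The latter held Pdgfra, with 4.53%, 3.66% and 4.81% upstream (chr5:75343854-75344792, plus strand, at most 790 residues). Downstream, at chr5:75355762-75358867 with 1089 residues, it had 4.19%, 4.01% and 4.26%. The 2 ends of Pdgfra thus overlapped in rate, with a log2 odds ratio of -0.04 and a 95% interval from -0.31 to 0.24 (adjusted p = 0.936). Il1rap, the accessory chain of the interleukin-1 receptor, which also has a soluble form, had an interval from -0.22 to 0.45. Its annotated proteins have at most 360 residues at the upstream and 570 at the downstream end, and the antisense gene Gm20319 overlaps both. Prrx1, a transcription factor of mesenchymal cells, had one from -0.24 to 0.24, and Pakap, the pair with the most labeled reads after App, from -0.15 to 0.39. Vegfd (-0.30 to 0.09), Sptbn1 (-0.17 to 0.24) and Pcdh7 (-0.11 to 0.37), chosen after their values were seen, were bounded as closely.

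Of the 17 genes with well known alternative last exons, 3 were higher downstream (Cxcl12, Csf1 and Ikbip) and none upstream, against 3.96% and 2.97% of all pairs. Lamp2, which was higher upstream, is not on this list. This list and the gene groups below were chosen with earlier results of these data known, so their counts are a description only. The list had a median log2 odds ratio of 0.18 against -0.01 over all pairs, and a median downstream share of 81.5% against 63.1%. Those that did not pass include Tmpo, a nuclear envelope protein, with 1.09%, 2.34% and 4.35% upstream and 4.93%, 5.64% and 3.26% downstream (adjusted p = 0.0817). In Fbln1, a matrix glycoprotein, both ends had low rates, 0.732%, 0.389% and 0 of 595 T positions upstream and 0.507%, 0.914% and 0.444% downstream (adjusted p = 0.123). Lmna, Nrp1, Nrp2, Cd55, Col6a2 and Tpm3 had adjusted p-values from 0.546 to 0.885.

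Of 6 matrix and secreted genes with a pair, Cxcl12 and Csf1 were higher downstream, with a median log2 odds ratio of 0.35. Among these Col14a1, a fibril-associated collagen, had 0.816%, 0.892% and 2.32% upstream and 0.808%, 0.765% and 0.684% downstream (adjusted p = 0.0867). Its upstream rate was highest in replicate 3. The log2 odds ratio of Col14a1 was -0.59, and -0.85 without labeled replicate 1, where the gene passed (adjusted p = 0.0368). Without labeled replicate 3 it was -0.13 (adjusted p = 0.812). Of 15 genes under the symbols of receptors, kinases and phosphatases, Egfr passed (median 0.11), while the receptors Ghr and Ifnar2, which also passed, are not matched by these symbols. None passed among 10 genes of RNA processing (median -0.16), 9 of the cytoskeleton and nuclear envelope (0.13) and 11 under the symbols of transcription factors (0.31), a group whose symbol match also took in the receptors Nrp1 and Nrp2. The factors that make 3′ ends were present with 2 pairs, Rbbp6 and Wdr33, of which none passed. By the arrangement of the ends, 7 of 96 genes with an intronic upstream end passed, 2 of 38 with a partly exonic one, 2 of 31 with a wholly exonic one and 3 of 34 without an annotated end in both intervals, against 14 of 202 (6.93%) over all pairs.

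Cp, the copper-binding ferroxidase ceruloplasmin, is an example of a deep pair with low rates at both ends, 1.22%, 1.05% and 0.866% upstream and 1.24%, 0.649% and 1.45% downstream. The 2 ends overlapped (log2 odds ratio -0.09, 95% interval -0.51 to 0.32). Mean rates below 2% at both ends were found in Cp, Lamp2, Col14a1, Col6a2, Fbln1 and Htra3, the last chosen after its values were seen, while the other 196 genes had a higher rate at 1 end or both.

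In 12 genes more than 2 separate intervals were covered, 4 in Vti1a and 3 in each of the others. Asph, an aspartyl hydroxylase, had T>C rates of 3.46% ± 1.27, 4.81% ± 0.629 and 2.84% ± 0.537 from upstream to downstream (SD, n = 3), with the middle interval the highest in each labeled library. In App the middle interval had 3.27% ± 1.18, near its upstream one (3.01% ± 1.77) and above the downstream one (1.69% ± 0.148). Dclk1 and Socs2 used 1 upstream interval for 90.3% ± 0.904 and 86.8% ± 0.879 of their reads. The middle intervals are not in the pairs above. With the 2 most read intervals paired instead, 16 genes passed, Asph among them.

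To see whether the use of the ends differed with S4U, the downstream read share was compared between labeled and unlabeled CF. By edgeR's quasi-likelihood test of the interval and label interaction without a replicate term no gene of 202 passed (0% called; 19 at an unadjusted p below 0.05, of which 8 were higher and 11 lower in labeled CF; lowest adjusted p = 0.246). DESeq2 called none (7 unadjusted) and limma none (20 unadjusted). With a replicate block 20 genes passed, though the labels do not say what a replicate number marks. The log2 change had a median SE of 0.49 in the fit without the block. In bulk cultures a change in the ends used per cell and a change in the cells that use them cannot be told apart. The labeled and unlabeled libraries did not overlap in 56 genes, 27.7% of all, with the labeled share above in 20 (9.9%) and below in 36 (17.8%). The coverage minimum was set on the labeled libraries alone, and its part in these counts was not tested.

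Cxcl12 was one of them. Its downstream share was 19.1%, 26.0% and 30.1% in the labeled and 11.4% and 13.2% in the unlabeled libraries, on 604 to 3097 reads per library. All labeled libraries were above both unlabeled ones, a log2 change of 1.23 ± 0.35 SE (adjusted p = 0.444 by edgeR without a replicate term). Fbxl5, an iron-sensing ubiquitin ligase subunit chosen after its values were seen, had 75.7%, 65.9% and 72.2% in labeled against 92.3% and 93.1% in unlabeled CF. Fbxl5 did not pass without a replicate term (adjusted p = 0.246 by edgeR). The other genes with different T>C rates included Csf1 (92.7%, 88.2% and 88.5% against 93.1% and 85.8%) and Lamp2 (31.4%, 18.7% and 11.2% against 30.5% and 15.5%), whose groups overlapped.

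**Figure D5:**
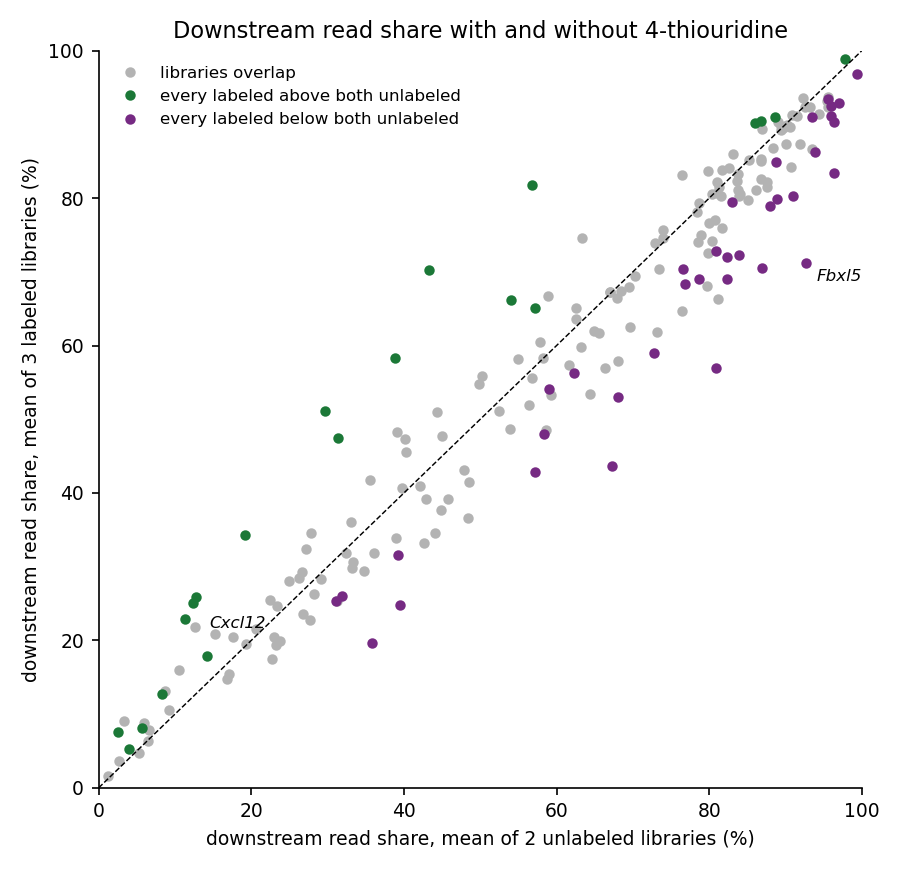
Mean downstream read share of the 3 labeled (y axis, percent) against the 2 unlabeled libraries (x axis, percent) for 202 genes, with the line of equal shares. Green and purple points are the 20 and 36 genes in which every labeled library lay above or below both unlabeled ones, and Cxcl12 and Fbxl5 are named.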

How the data were processed

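SLAMseq libraries of 3 labeled and 2 unlabeled CF cultures were grouped by the submitters' labels. The authors prepared QuantSeq 3′ FWD libraries with molecular identifiers, mapped the reads to mm39 with slamdunk 0.4.3 and removed duplicates. Per the file headers, the deposited values of each 3′ UTR interval are raw counts (of reads, of covered T positions, of conversions), and the conversion rate the authors deposited is a fraction of the covered T positions. The CPM the authors deposited was not used.

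Repeated rows were dropped. The T content of 40380 of 40380 intervals matched GRCm39, and GENCODE gave exons, transcript ends and proteins, a transcript counting for an interval when it ends within 50 bases of it. Rates were recomputed from the counts and are printed in percent. The T>C test was a quasi-binomial logistic model with terms for library and interval, its dispersion moderated by limma (to 1 shared value of 1.38 for all genes), two-sided. Read shares were tested with edgeR's quasi-likelihood test on pairs with at least 10 reads in every library. This comparison within a gene exists only for genes with a pair, so the 202 pairs are also the background. Intervals of 95% are normal approximations, and limits for 0 conversions are 3 conversions of the covered T positions and cover counting error only.

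Genes were named if they belonged to the list of alternative last exons, were among the largest rate differences at 1000 covered T positions, had most reads, or had the highest or lowest share; called genes outside this rule (Ghr, Egfr, Ifnar2, Ndufb8, Ccpg1, Gpc6, Ahnak and Cr1l) were named after their values were seen. Results for some genes are not reported here. The members and lists were chosen with earlier results of these data known. The alternatives were other coverage minimums and tests, background subtraction, other choices of interval and each library left out; 2 further dispersion estimates were added after seeing the data. The tests, first tried on simulated data, ran in DESeq2 1.42.0, limma 3.58.1 and edgeR 4.0.16 under R 4.3.3. Tables and plots were made with Python 3.11.15 (pandas 2.3.3, numpy 2.4.6, matplotlib 3.10.9).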

Additional observations from a re-analysis of the deposited data

How the results depend on the processing

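The count of 14 genes with different T>C rates was 4 at a minimum of 1000 covered T positions (12 genes tested), 3 by limma on the paired log odds, 9 by the beta-binomial test, 4 by limma with the unlabeled rate subtracted (which changes the test as well), 7 for pairs that overlap no other gene (110 tested) and 33 at an unadjusted p below 0.05. With each labeled library left out it ran from 0 (without replicate 3) to 8, and of the 7 without replicate 1, 6 were among the 14, the other being Col14a1. The other choices, among them a minimum of 30, other choices of interval, annotated ends only and both added dispersion estimates, gave 10 to 16, of which the 2 dispersion estimates kept 12 and 13 of the 14 genes and the minimum of 30 kept 12, losing Lamp2 and Mxra7. Fewer genes were tested at 1000 covered T positions and without overlaps. For the other shifts the cause was not tested.

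The log2 odds ratio of genes that did not pass changed sign in Cd55 (-0.34 by limma, -0.40 background subtracted, and from -0.48 without labeled replicate 1 to 0.25 without replicate 2), Cp (0.061 by limma, and from -0.31 without replicate 1 to 0.11 without replicate 2), Pakap (from -0.0071 without replicate 3 to 0.26 without replicate 2), Pdgfra (0.0012 background subtracted, and from -0.13 without replicate 2 to 0.041 without replicate 1) and Prrx1 (-0.083 by limma, -0.00096 by the beta-binomial test, -0.14 background subtracted, and from -0.21 without replicate 1 to 0.12 without replicate 2). In Lamp2 it was 1.13 at a minimum of 30, where another interval with 157 covered T positions in labeled replicate 1 took the downstream place. In Mxra7 it fell from 0.44 to 0.048 at that minimum (adjusted p = 0.991). Of 391 values under alternatives for the named genes, 318 kept direction and side of the threshold, and 59 kept the direction but no longer passed. Several alternatives leave the pair and its estimate unchanged for most genes. Genes that passed in no setting also count among the 318, so this total is not a measure of stability.

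Genes with most reads downstream numbered 4 of 12 pairs at 1000 covered T positions and 46 of 108 with annotated ends only, against 108 of 202. The read share gave 19 genes at an unadjusted p below 0.05, and no gene with any 1 library left out. With the replicate block 20 genes passed. The labels share the numbers 1 and 2 between the groups and do not say what a number marks. Deviations from the group means had a correlation of 0.72 between labeled and unlabeled replicate 1 and 0.66 between those of replicate 2. Labeled replicate 3 and unlabeled replicate 2, which share no number, had 0.42. With 2 unlabeled libraries these values are a hint only.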
